A study of Mus musculus with 25 samples.

Results

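The leukocyte lineage markers are 39 mouse genes whose transcripts are used to recognise white blood cells as a whole or a single lineage among them. They were followed in RNA from the esophagus of mice with genetic changes to the NRF2 pathway. Members were taken by gene symbol alone, without use of a measured value: 2 pan-leukocyte, 6 pan-myeloid, 9 macrophage and monocyte, 4 dendritic and Langerhans cell, 2 neutrophil, 5 T cell, 2 B cell, 3 natural killer (NK) and cytotoxic, and 4 mast cell genes, with 2 less specific genes. Of these, 38 were listed in at least 1 of the 2 deposited tables, 32 among the 21106 genes of the pup table and 38 among the 19942 genes of the adult table. Trac was in neither, and Tyrobp, Cd79a, Ms4a1, Nkg7, Ncr1 and Klrd1 were not in the pup table. A normalised count of at least 1 in 3 pup or 4 adult libraries was reached by 32 markers in pups, of 21007 genes tested, and by 37 in adults, of 19857 genes tested.

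Pups were 7 to 10 days old and gave 3 libraries per genotype, which were NRF2L30F/L30F::K5Cre, KEAP1flox/flox::K5Cre and wild type. Adults of 6 to 9 weeks gave 4 libraries per genotype, which were NRF2L30F/+::K5CreERT2, NRF2L30F/L30F::K5CreERT2, KEAP1flox/flox::K5CreERT2 and wild type. All adult groups were sampled 1 week after tamoxifen at 100 µg per g body weight, which switches on the CreERT2 recombinase. L30F replaces leucine 30 of NRF2 by phenylalanine and is written here as L30F/L30F or L30F/+, and deletion of the floxed Keap1 gene is called KEAP1 deficiency. Keratin 5 (K5) promoters direct Cre to squamous epithelial cells, so the leukocytes measured here were not the cells the Cre was aimed at. The labels do not say whether the wild types carried Cre, and they name no animal behind a library, so the p-values speak for the scatter of the libraries at hand, which may be partly technical.

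Leukocytes reach the esophagus through the blood and settle in the mucosa, where macrophages clear debris, Langerhans and other dendritic cells carry antigen to lymph nodes, and mast cells store proteases in granules. Monocytes and neutrophils enter tissue from the blood during inflammation, and most of the genes followed here encode the receptors, adhesion molecules and granule proteins by which these lineages are told apart. NRF2 is a transcription factor that turns on detoxifying and antioxidant genes, and KEAP1 is the adaptor that binds it and sends it for degradation, a contact in which the N-terminal region of NRF2 takes part.

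The libraries held 18.8 to 19.7 M recovered reads in pups and 10.9 to 32.3 M in adults, with the L30F/L30F adults shallowest at 10.9 to 11.6 M. Keap1 itself (ENSMUSG00000003308) had 725.4 to 825 normalised counts in KEAP1-deficient pups, 958.1 to 1424 in L30F/L30F pups and 1053 to 1094 in wild-type pups. Adults gave 720.9 to 811.5 in the KEAP1-deficient group, 1011 to 1253 in the L30F/+ group, 1172 to 1387 in the L30F/L30F group and 1077 to 1192 in the wild type. The KEAP1-deficient libraries were the lowest at both ages. Striated muscle, a large part of the mouse esophagus, differed between the adult groups. Its 10 marker genes summed to 144300 to 206000 normalised counts with KEAP1 deficiency, 470400 to 642900 with L30F/+ and 340800 to 481400 with L30F/L30F, against 345100 to 384900 in the wild type. Genes of the thymus or thyroid were seen in 3 pup libraries. Rag1, the recombinase of developing lymphocytes in the thymus, had 485 counts in L30F/L30F pup library 1, 173 in wild-type pup library 2 and 402 in wild-type pup library 3, against 1.02 to 8.64 in the other 6. Tg, the thyroid hormone precursor, had 30814 counts in L30F/L30F pup library 1 and 4.51 to 30.2 elsewhere. Foxj1, listed as an airway gene, had 99.7, 84.5 and 51.3 counts in the wild-type pup libraries and 39.9 in L30F/L30F pup library 1. It had 1.02 to 5.91 counts in all other pup libraries, and its part in the pup comparisons was not tested.

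The markers rose most widely in KEAP1-deficient adults. There 27 of 37 were higher and 2 lower than in the wild type, against 46.8% of all genes tested called in either direction, 24.1% higher and 22.7% lower. Their median log2 fold change was 1.45, with -0.01 over all genes. L30F/L30F adults had 16 of 37 higher and 0 lower, where 22.3% of all genes were called and 11.8% were higher, with medians of 0.63 and -0.01. L30F/+ adults had 2 higher and 1 lower, against 9.70% of all genes called, 4.80% higher and 4.90% lower, with medians of 0.32 and 0.01. In pups the calls went both ways. L30F/L30F pups had 6 of 32 higher and 6 lower, beside 39.2% of all genes called, 22.0% higher and 17.1% lower, and KEAP1-deficient pups had 7 higher and 11 lower beside 49.5% of all genes, 26.3% higher and 23.2% lower. Both shares of markers are near the background. Pup medians were 0.04 and -0.17, beside -0.03 and -0.05 over all genes. Single libraries moved some counts: 9 were called in L30F/L30F adults without wild-type library 1, 1 and 5 in L30F/+ adults without wild-type library 1 or 3, and 6 in L30F/L30F pups without wild-type library 1 or 3 and 7 without L30F/L30F library 2. Fold changes are on the log2(normalised count + 1) scale, which understates the change of genes with few counts, and a gene is called at an adjusted p under 0.05 in limma.

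**Figure D1:**
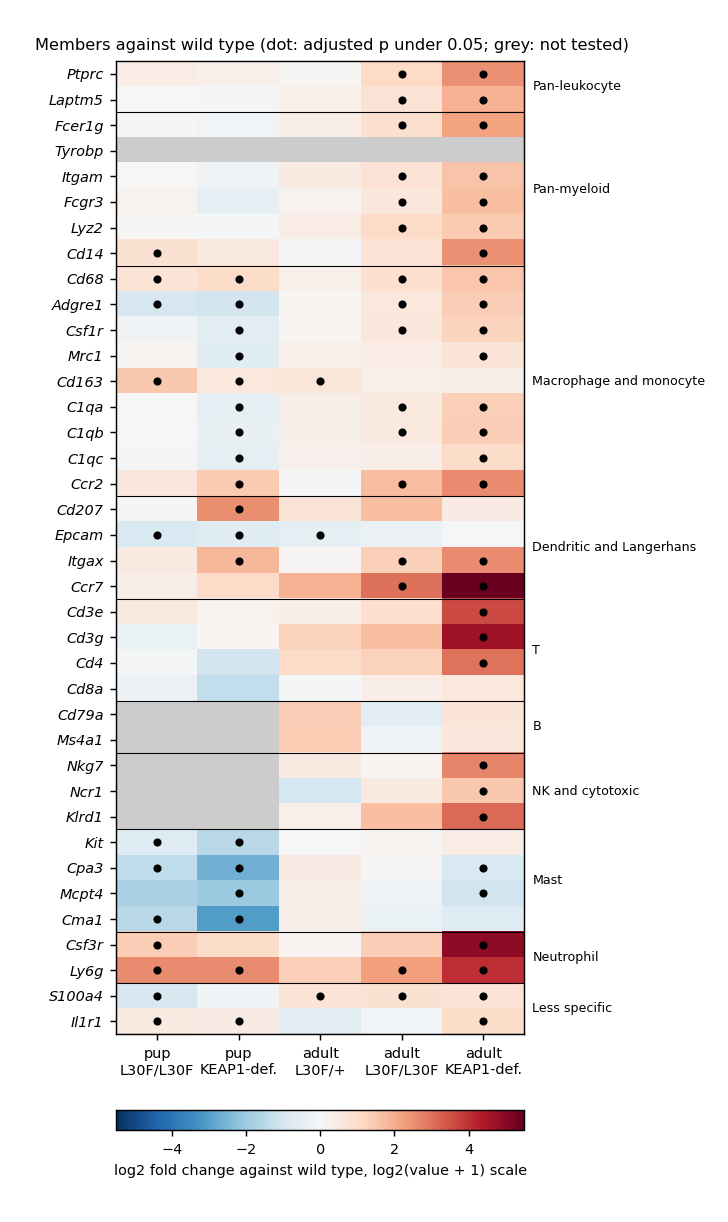
Log2 fold change of each marker (rows, by lineage) against the wild type of its own age in each mutant group (columns), with a dot where limma called it and grey where it was not tested. The KEAP1-deficient adult column holds 27 of its 29 calls on the higher side, and the pup columns hold calls in both directions.

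Pan-leukocyte genes rose in both homozygous adult groups and were not called in L30F/+ adults or in pups. Ptprc (ENSMUSG00000026395) encodes CD45, the phosphatase on all nucleated blood cells. It had 1790.4, 1839.5, 2012 and 1876 normalised counts in KEAP1-deficient adults, against 293, 317, 487 and 256 in wild-type adults (log2 fold change 2.51, SE 0.26, adjusted p = 1.5e-06). All 4 KEAP1-deficient libraries lay above every wild-type library. L30F/L30F adults had 787, 610.2, 1192 and 401 counts, and L30F/+ adults had 280.2, 367, 386 and 349.8. The L30F/L30F group was called higher (log2 fold change 1.08, SE 0.26, adjusted p = 0.0079), although its library 4 lay below wild-type library 3. In pups Ptprc had 228, 175 and 178 counts with L30F/L30F and 231, 121 and 199.8 with KEAP1 deficiency, against 121, 152 and 172 in the wild type. Those ranges overlapped in KEAP1-deficient pups and just cleared each other in L30F/L30F pups, and neither was called (log2 fold changes 0.39 and 0.27). Laptm5, a lysosomal membrane protein of blood cells, had 2163, 2924, 2899 and 2848 counts in KEAP1-deficient adults, against 581, 654, 1169 and 602 in the wild type (log2 fold change 1.90, SE 0.22, adjusted p = 4.5e-06). The lowest KEAP1-deficient library, at 2163, was still above the highest wild-type one. Its rise in L30F/L30F adults was smaller (log2 fold change 0.80, SE 0.22, adjusted p = 0.016) and was lost without wild-type library 1. In bulk RNA more cells of a type and more RNA per cell cannot be told apart, here and for every marker below.

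Other tissue compartments moved with these changes in adults. In KEAP1-deficient adults 9 of 10 striated muscle genes and 7 of 8 smooth muscle genes were lower, 5 of 8 fibroblast and 5 of 8 endothelial genes were higher, and 4 of 10 squamous genes were lower and 3 higher. None of the striated muscle sums of this group overlapped the wild type. A covariate was made from the mean log2 level of the striated muscle genes in each library. With it, 0 of the 37 markers were called in KEAP1-deficient adults, where the log2 fold change of Ptprc was 1.24 at adjusted p = 0.26. Muscle level and genotype cannot be told apart in this group. The muscle sums of L30F/+ adults all lay above the wild type, and 0 of their 3 calls held with the covariate (Cd163 0.54, adjusted p = 0.43, Epcam -0.44, adjusted p = 0.49, and S100a4). In L30F/L30F adults, whose muscle sums overlapped the wild type, 15 markers were called with the covariate and Ptprc had a log2 fold change of 1.21 at adjusted p = 0.0029.

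**Figure D2:**
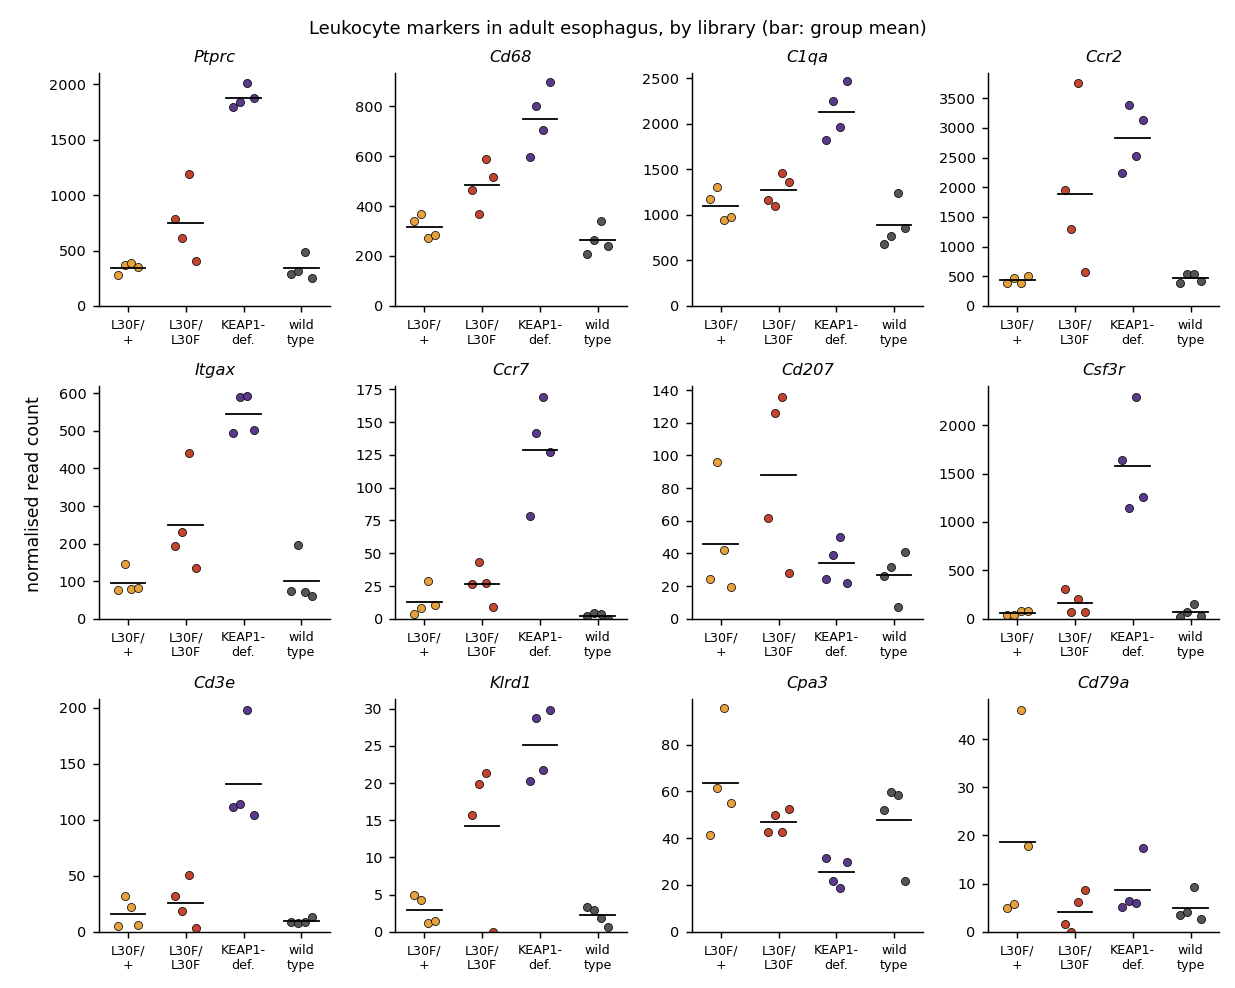
Normalised counts per library (points, linear axis from 0) of selected markers in adults, with L30F/+, L30F/L30F, KEAP1-deficient and wild-type groups from left to right and bars at the group means. Ptprc, Cd68 and Csf3r sit highest in the 4 KEAP1-deficient libraries, and Cpa3 lies lower there than in 3 of the 4 wild-type libraries.

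All 5 tested pan-myeloid genes rose in KEAP1-deficient adults and 4 of 5 rose in L30F/L30F adults, while L30F/+ adults had none. Fcer1g, the signalling chain shared by activating Fc receptors, had 701, 799, 852 and 859 counts with KEAP1 deficiency, against 139, 194, 231 and 140.5 in the wild type (log2 fold change 2.21, SE 0.24, adjusted p = 2e-06). Fcgr3, a low-affinity IgG receptor, had 708, 877, 858 and 1008 and 201, 242, 392 and 272 counts in these groups (log2 fold change 1.67, SE 0.16, adjusted p = 5e-07). Neither gene overlapped between the groups. Itgam, the integrin chain CD11b of neutrophils, monocytes and macrophages, had 2338, 2642, 2679 and 3396 counts in KEAP1-deficient adults, against 578, 862, 1786 and 782 in wild-type adults (log2 fold change 1.58, SE 0.27, adjusted p = 0.00022). Lyz2, the lysozyme of phagocytes, had 8810.1, 12384, 9867 and 12443 counts in those libraries and 3195, 4009, 5644 and 3358 in the wild type (log2 fold change 1.45, SE 0.24, adjusted p = 0.00019). Wild-type library 3 was the highest of its group for both genes, and for 21 of the 37 markers. Cd14, the co-receptor for bacterial endotoxin, had 618, 484, 1125 and 678 counts with KEAP1 deficiency, against 85.3, 141, 218 and 81.3 in the wild type (log2 fold change 2.50, SE 0.31, adjusted p = 9.3e-06). Every KEAP1-deficient library exceeded every wild-type one for Cd14.

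Among L30F/L30F adults the called pan-myeloid genes were Fcer1g, Itgam, Fcgr3 and Lyz2. Their log2 fold changes were 0.88, 0.80, 0.63 and 1.04, at adjusted p = 0.015, 0.049, 0.01 and 0.0074. Ranges overlapped the wild type for all 4. Itgam was called in 2 of 8 fits that each left out 1 library, Fcer1g in 6 (lost without wild-type library 1 or L30F/L30F library 1), and the other two in all 8. Tyrobp, the DAP12 adaptor, was listed at 0 in 15 of 16 adult libraries and at 89.6 counts in L30F/+ library 3, and was not tested. In pups only Cd14 was called. It had 97.6, 175 and 129 counts in L30F/L30F pups and 76.8, 158 and 97.2 in KEAP1-deficient pups, against 89.0, 66.7 and 64.2 in wild-type pups. The L30F/L30F call (log2 fold change 0.84, SE 0.29, adjusted p = 0.044) held in 2 of 6 fits without 1 library, and the KEAP1-deficient group overlapped the wild type at library 1. It was lost without wild-type library 2 or 3 or L30F/L30F library 2 or 3.

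Macrophage and monocyte genes were called mostly higher in adults and in both directions in pups. In KEAP1-deficient adults 8 of 9 were higher and 0 lower, and in KEAP1-deficient pups 3 of 9 were higher and 6 lower. L30F/L30F adults had 6 higher and 0 lower, and L30F/L30F pups 2 higher and 1 lower. L30F/+ adults had 1 of 9 higher, Cd163.

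Cd68, a lysosomal glycoprotein of phagocytes, rose in 4 of the 5 mutant groups. KEAP1-deficient adults had 598, 799.5, 704 and 897 counts and L30F/L30F adults 465, 366, 587 and 514, against 208, 264, 339 and 241 in the wild type. Both mutant groups lay above every wild-type library (log2 fold changes 1.51 and 0.88, adjusted p = 2.9e-06 and 0.0022). L30F/+ adults had 339.9, 369.7, 270.1 and 286 counts, which overlapped the wild type (0.28). In pups Cd68 had 239, 236 and 264 counts with L30F/L30F and 253, 345 and 309 with KEAP1 deficiency, against 174, 135 and 135 in the wild type. It was again without overlap (log2 fold change 0.74, SE 0.15, adjusted p = 0.0029 and log2 fold change 1.02, SE 0.15, adjusted p = 0.00026). Leaving out the 3 pup libraries with thymus or thyroid genes, an alternative chosen after seeing the data, kept the call in KEAP1-deficient pups and ended it in L30F/L30F pups.

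Adgre1 encodes F4/80, the classical surface antigen of mouse macrophages. In adults it had 839, 1126, 1046 and 1128 counts with KEAP1 deficiency, 320.5, 516, 374 and 538 with L30F/+ and 637, 466, 798 and 563 with L30F/L30F, against 333, 400.0, 546 and 354 in the wild type. It rose in KEAP1-deficient adults (log2 fold change 1.36, SE 0.20, adjusted p = 3.8e-05), with no overlap. The L30F/L30F call (log2 fold change 0.59, adjusted p = 0.041) overlapped the wild type and held in 2 of 8 fits without 1 library. Pups went the other way. They had 176, 146 and 202 counts with L30F/L30F and 249.6, 97.1 and 177 with KEAP1 deficiency, against 322, 285 and 375 in the wild type. All 6 mutant libraries were below all 3 wild-type libraries (log2 fold change -0.91, SE 0.30, adjusted p = 0.038 in L30F/L30F and log2 fold change -1.0, SE 0.30, adjusted p = 0.021 in KEAP1-deficient pups). The L30F/L30F call was lost in all 6 fits without 1 library, and the KEAP1-deficient one without wild-type library 1 or 3.

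The remaining macrophage receptors followed Adgre1 in KEAP1-deficient mice at both ages. Csf1r, the receptor for the macrophage growth factor CSF1, had 3050.0, 4001, 3538 and 4115 counts in KEAP1-deficient adults, against 1368, 1479, 1972 and 1565 in wild-type adults (log2 fold change 1.21, SE 0.16, adjusted p = 1.3e-05). In pups it had 1016, 573 and 902 counts with KEAP1 deficiency, against 1357, 1257 and 1160.3 in the wild type (log2 fold change -0.64, SE 0.18, adjusted p = 0.016). The KEAP1-deficient libraries were all higher in adults and all lower in pups, the pup call being lost without wild-type library 1. Mrc1, the mannose receptor CD206 of tissue-resident macrophages, had 2218, 2857, 2444 and 2706 counts with KEAP1 deficiency in adults, against 1379, 1453, 1962 and 1531 in the wild type (log2 fold change 0.70, SE 0.17, adjusted p = 0.0037). It had 924, 738 and 785 counts in KEAP1-deficient pups, 1268, 1629 and 1287 in L30F/L30F pups and 1222, 1256 and 1446 in wild-type pups. Only the KEAP1-deficient pups separated from the wild type (log2 fold change -0.68, SE 0.12, adjusted p = 0.00099), and they also lay below L30F/L30F pups.

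Cd163, the scavenger receptor that takes up haemoglobin bound to haptoglobin, did not follow that order. In pups it had 637, 743 and 767 counts with L30F/L30F and 398, 349.9 and 422 with KEAP1 deficiency, against 198, 311 and 279.8 in the wild type. Both mutant groups stood clear of the wild type and of each other (log2 fold change 1.46, SE 0.16, adjusted p = 6e-05 with L30F/L30F, log2 fold change 0.59, SE 0.16, adjusted p = 0.012 with KEAP1 deficiency). Both calls held in every fit without 1 library and without the 3 libraries holding thymus or thyroid genes, where the L30F/L30F value was 1.93. In adults it had 1188, 1436, 1006 and 1495 counts with L30F/+, 865, 942, 864 and 1215 with L30F/L30F and 983, 945, 1000.2 and 1061 with KEAP1 deficiency, against 629, 684, 1032 and 896 in the wild type. L30F/+ adults were called higher (log2 fold change 0.67, SE 0.16, adjusted p = 0.016) although their library 3 lay below wild-type library 3, and the call was lost without wild-type library 1 or 2. KEAP1-deficient and L30F/L30F adults were not called (0.33 and 0.28). Red blood cell transcripts, the source of haemoglobin, had 5 of 5 genes lower in KEAP1-deficient pups and 0 of 5 called in L30F/L30F pups, and their part in the Cd163 values was not tested.

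The C1q chains, the recognition subunit of the classical complement pathway made by macrophages, are encoded by C1qa, C1qb and C1qc. C1qa had 1824, 2248, 1964 and 2467 counts in KEAP1-deficient adults and 1167, 1103, 1458 and 1363 in L30F/L30F adults, against 677, 768, 1237 and 861 in wild-type adults. KEAP1 deficiency separated fully (log2 fold change 1.29, SE 0.16, adjusted p = 1.1e-05), and L30F/L30F overlapped at wild-type library 3 (log2 fold change 0.55, SE 0.16, adjusted p = 0.025, called in 4 of 8 fits without 1 library). C1qb and C1qc rose with KEAP1 deficiency by 1.36 and 1.01, at adjusted p = 1.6e-05 and 8.1e-05. Their adult counts were 1731, 2520.0, 2144 and 2500.0 for C1qb and 1419.7, 1896, 1613 and 2059 for C1qc with KEAP1 deficiency, against 696, 764, 1305 and 779 and 705, 763, 1216 and 839 in the wild type. No library overlapped for either chain. With L30F/L30F, C1qb was called at 0.53 (adjusted p = 0.046, held in 2 of 8 fits without 1 library) and C1qc was not (0.36). All 3 chains fell in KEAP1-deficient pups, by smaller amounts. C1qa had 406, 318 and 374 counts there, against 532, 481 and 529 in wild-type pups (log2 fold change -0.49, SE 0.10, adjusted p = 0.0028). C1qb had 412, 323 and 352 and 498, 471 and 451 (log2 fold change -0.39), and C1qc 415, 345 and 341 and 558, 489 and 485 (-0.48). No chain was called in L30F/L30F pups, where C1qa stayed at 507, 563 and 518.

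Because the C1q chains moved together, the promoters of the pair with an entry were read from RefSeq (GRCm38.p6), from 250 bases before to 50 after the start, and searched for GAGGAAGT, a sequence of the PU.1 type bound in myeloid cells, on both strands (ACTTCCTC on the other strand). The capitals mark a match.
C1qb, chr4:136886151-136886450, minus strand: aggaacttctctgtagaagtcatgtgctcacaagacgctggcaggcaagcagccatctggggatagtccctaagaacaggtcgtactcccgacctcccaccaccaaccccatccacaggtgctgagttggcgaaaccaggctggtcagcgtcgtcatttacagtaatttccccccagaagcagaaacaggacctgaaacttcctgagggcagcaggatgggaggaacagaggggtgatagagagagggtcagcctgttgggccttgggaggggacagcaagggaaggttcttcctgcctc
C1qc, chr4:136892865-136893164, minus strand: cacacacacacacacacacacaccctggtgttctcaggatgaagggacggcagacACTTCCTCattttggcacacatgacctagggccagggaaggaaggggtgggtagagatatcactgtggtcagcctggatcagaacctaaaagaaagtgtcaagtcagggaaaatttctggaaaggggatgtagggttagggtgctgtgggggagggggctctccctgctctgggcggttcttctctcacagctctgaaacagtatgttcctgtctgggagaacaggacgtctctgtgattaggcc
C1qc holds 1 match, which starts 195 bases before the start, and C1qb holds 0. Of all promoters of this length in the table, 3.2% hold the sequence (1052 of 32851), as do 4 of the 35 promoters of markers. Counted by gene, 3.69% of all genes have such a promoter (997 of 27025), and 3 of the 29 markers with an entry do, S100a4, C1qc and Ly6g. Tyrobp, Cd14, Adgre1, Csf1r, C1qa, Ccr7, Cd4, Trac, Ms4a1 and Klrd1 have no entry.

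Ccr2, the chemokine receptor that brings monocytes out of the bone marrow, rose in both homozygous adult groups. It had 2240.5, 3389.8, 2528 and 3132 counts with KEAP1 deficiency, 386, 470.0, 395 and 505 with L30F/+ and 1952, 1292, 3754 and 570.1 with L30F/L30F, against 385, 532, 544 and 418 in the wild type. All 8 homozygous libraries were above all 4 wild-type libraries (log2 fold change 2.58, SE 0.40, adjusted p = 9.5e-05 with KEAP1 deficiency, log2 fold change 1.71, SE 0.40, adjusted p = 0.0073 with L30F/L30F). L30F/L30F library 3, at 3754, exceeded every KEAP1-deficient library, and library 4, at 570.1, was near the wild type. KEAP1-deficient pups had 281, 67.7 and 143 counts, against 39.2, 47.1 and 71.0 in wild-type pups (log2 fold change 1.44, SE 0.48, adjusted p = 0.034). That call overlapped at library 2 and was lost without wild-type library 1 or 2 or KEAP1-deficient library 1 or 3.

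Dendritic and Langerhans cell genes split. Itgax and Ccr7 rose in KEAP1-deficient and L30F/L30F adults, whereas Cd207 was not called in any adult group and Epcam was lower in L30F/+ adults and in both mutant pup groups. Itgax, the integrin chain CD11c, had 495, 590.3, 592 and 502 counts in KEAP1-deficient and 192, 230.5, 442 and 136 in L30F/L30F adults, against 73.2, 197, 72.2 and 61.8 in the wild type. The KEAP1-deficient libraries lay above all others (log2 fold change 2.58, SE 0.36, adjusted p = 3.4e-05), and the L30F/L30F group (log2 fold change 1.33, SE 0.36, adjusted p = 0.017) overlapped at wild-type library 2, its call being lost without wild-type library 1. Ccr7, the receptor that guides dendritic and T cells to lymph nodes, had 78.3, 141, 169 and 127 counts with KEAP1 deficiency, 3.66, 8.60, 29.1 and 10.4 with L30F/+ and 26.8, 43.1, 27.5 and 8.72 with L30F/L30F, against 2.03, 4.06, 3.73 and 0 in the wild type. Neither homozygous group overlapped the wild type (log2 fold change 5.42, SE 0.60, adjusted p = 2.6e-06 with KEAP1 deficiency, log2 fold change 3.05, SE 0.60, adjusted p = 0.0023 with L30F/L30F), and L30F/+ missed the threshold (log2 fold change 1.93, adjusted p = 0.054). In KEAP1-deficient pups Itgax had 97.1, 30.5 and 60.5 counts, against 12.5, 15.1 and 18.8 in wild-type pups (log2 fold change 1.82, SE 0.50, adjusted p = 0.013), without overlap.

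Cd207 encodes langerin, the lectin of Langerhans cell granules. It had 24.2, 39.1, 50.3 and 21.8 counts in KEAP1-deficient, 24.4, 96.0, 42.4 and 19.3 in L30F/+ and 61.5, 126, 136 and 27.9 in L30F/L30F adults, against 26.4, 31.9, 7.47 and 41.0 in wild-type adults. The groups overlapped, and the L30F/L30F value missed the threshold (log2 fold change 1.65, SE 0.59, adjusted p = 0.058). In pups it had 1.99, 0 and 0 counts with L30F/L30F and 13.9, 1.13 and 16.2 with KEAP1 deficiency, against 0, 0 and 1.71 in the wild type. The KEAP1-deficient call (log2 fold change 2.55, SE 0.96, adjusted p = 0.049) rests on libraries 1 and 3 and held in 2 of 6 fits without 1 library, being lost without either of them or without wild-type library 1 or 2. In recovered reads it was 29 against 2 over the 3 libraries of each group, a ratio of 18 (exact 95% interval 4.55 to 156, counting error only). Epcam, an adhesion molecule of Langerhans cells that epithelia also make, had 596, 531 and 349 counts in L30F/L30F and 587, 559.8 and 464 in KEAP1-deficient pups, against 1151, 762 and 719.6 in wild-type pups. All 6 mutant libraries were lower (log2 fold change -0.84, SE 0.23, adjusted p = 0.018 and log2 fold change -0.68, SE 0.23, adjusted p = 0.035). L30F/+ adults had 493, 379.7, 396 and 396 counts, against 674, 590.1, 655 and 526 in the wild type (log2 fold change -0.55, SE 0.14, adjusted p = 0.024), without overlap, and the call was lost without wild-type library 1 or 3 or L30F/+ library 2 or 3.

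Neutrophil genes rose in KEAP1-deficient adults by more than the markers' median of 1.45. Csf3r (ENSMUSG00000028859) encodes the receptor for the granulocyte growth factor G-CSF. It had 1637, 1143, 2290.2 and 1261 counts with KEAP1 deficiency, 36.6, 41.6, 78.7 and 81.5 with L30F/+ and 306, 66.3, 202 and 66.3 with L30F/L30F, against 22.4, 70.7, 152 and 25.5 in the wild type. The lowest KEAP1-deficient library held 1143 counts and the highest of any other adult group 306 (log2 fold change 4.90, SE 0.60, adjusted p = 1.3e-05). L30F/L30F adults overlapped the wild type and were not called (log2 fold change 1.34, SE 0.60, adjusted p = 0.13). In pups Csf3r had 58.8, 47.3 and 60.4 counts with L30F/L30F and 43.7, 71.1 and 24.8 with KEAP1 deficiency, against 13.4, 22.2 and 29.9 in the wild type. L30F/L30F pups were called (log2 fold change 1.37, SE 0.39, adjusted p = 0.018) without overlap, the call being lost without wild-type library 1 or L30F/L30F library 3, and KEAP1-deficient pups overlapped the wild type and missed the threshold (1.00, adjusted p = 0.054).

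Ly6g, the surface antigen used to recognise mouse neutrophils, was found at few counts, and its reads may be shared with close relatives of the Ly6 family. It had 15.8, 12.8, 17.3 and 16.7 counts in KEAP1-deficient, 1.22, 0, 6.06 and 1.48 in L30F/+ and 9.47, 1.66, 3.06 and 3.49 in L30F/L30F adults, against 0 in all 4 wild-type libraries. Taking 3 reads in each wild-type library as the floor, it was at least 7.71-fold higher with KEAP1 deficiency and at least 2.18-fold higher with L30F/L30F (adjusted p = 1.5e-05 and 0.0077). The L30F/L30F bound was 1.35 without library 1. In pups it had 9.96, 4.93 and 5.12 counts with L30F/L30F and 8.53, 3.39 and 8.64 with KEAP1 deficiency, against 0, 0 and 0.856 in the wild type. No mutant pup library overlapped the wild type (adjusted p = 0.0059 and 0.0043). Summed reads were 20 with L30F/L30F and 19 with KEAP1 deficiency against 1 in the wild type, ratios of 22.8 (exact 95% interval 3.65 to 947) and 23.6 (3.75 to 979). The RefSeq promoter of Csf3r, the other neutrophil marker, holds 0 matches to GAGGAAGT. Of 2 RefSeq promoters for Ly6g, the one with 2 matches to GAGGAAGT, at 99 bases before and 26 after the start, is shown for comparison with the C1q pair.
Ly6g, chr15:75155079-75155378, plus strand: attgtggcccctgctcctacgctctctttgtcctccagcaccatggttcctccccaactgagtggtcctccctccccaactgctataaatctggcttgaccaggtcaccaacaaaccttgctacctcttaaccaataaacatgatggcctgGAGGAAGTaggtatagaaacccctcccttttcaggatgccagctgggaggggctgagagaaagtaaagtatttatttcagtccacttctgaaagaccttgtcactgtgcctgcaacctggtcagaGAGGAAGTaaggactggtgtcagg

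T cell genes rose in KEAP1-deficient adults, where 3 of 4 tested were called, and were not called in any other group. Cd3e, a signalling chain of the T cell receptor complex, had 112, 114, 198 and 104 counts with KEAP1 deficiency, 4.87, 31.5, 21.8 and 5.93 with L30F/+ and 31.6, 18.2, 50.4 and 3.49 with L30F/L30F, against 8.81, 7.54, 8.71 and 12.8 in the wild type. KEAP1-deficient libraries were higher than all others (log2 fold change 3.64, SE 0.65, adjusted p = 0.00026), library 3 standing well above the rest of its group. Cd3g, another chain of that complex, had 79.4, 79.1, 139.7 and 108 counts in KEAP1-deficient adults, against 0.677, 2.90, 1.87 and 11.4 in the wild type (log2 fold change 4.67, SE 0.96, adjusted p = 0.00098). Cd4, the co-receptor of helper T cells that some macrophages and dendritic cells also carry, had 27.6, 31.2, 46.6 and 47.3 counts, against 2.71, 3.48, 1.24 and 12.8 in the wild type (log2 fold change 3.0, SE 0.88, adjusted p = 0.011). The groups did not overlap for either gene. Cd8a, the co-receptor of cytotoxic T cells, had 20.8, 51.1, 33.8 and 41.5 counts with KEAP1 deficiency, against 24.4, 20.3, 24.3 and 24.2 in the wild type, and was not called (log2 fold change 0.57, SE 0.31, adjusted p = 0.15). L30F/L30F adults had log2 fold changes of 0.92, 1.67, 1.27 and 0.35 for these 4 genes, none called, and their library 4 had 0 counts of Cd3g and Cd4.

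In pups the highest value of each T cell gene was in a library that held Rag1. Cd8a had 109.6, 33.5 and 20.5 counts with L30F/L30F and 22.4, 26.0 and 15.1 with KEAP1 deficiency, against 24.9, 63.1 and 96.7 in the wild type. The highest 3 values, 110, 96.7 and 63.1, were those of L30F/L30F library 1 and wild-type libraries 3 and 2, the libraries with 485, 402 and 173 Rag1 counts. Cd3e had 59.8, 8.87 and 10.2 counts with L30F/L30F and 16, 6.77 and 25.9 with KEAP1 deficiency, against 2.67, 21.3 and 28.2 in the wild type, with its highest 2 values in such libraries and KEAP1-deficient library 3, at 25.9, above wild-type library 2. Cd3g had 21.9, 2.96 and 8.19 counts with L30F/L30F and 13.9, 5.64 and 21.6 with KEAP1 deficiency, against 4.45, 11.6 and 25.7 in the wild type. KEAP1-deficient libraries 1 and 3, with 3.2 and 8.64 Rag1 counts, exceeded wild-type library 2 for Cd3g. Cd4 ranged over 21.7 to 109 counts with L30F/L30F and 13.5 to 30.9 with KEAP1 deficiency, against 29.4 to 71.9 in the wild type. No T cell gene was called in either pup comparison.

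NK and cytotoxic genes, tested in adults alone, were all 3 higher with KEAP1 deficiency and not called in the other groups. Klrd1, the CD94 receptor of NK cells, had 20.3, 28.8, 21.8 and 29.8 counts with KEAP1 deficiency and 15.8, 19.9, 21.4 and 0 with L30F/L30F, against 3.39, 2.90, 1.87 and 0.672 in the wild type. It rose with KEAP1 deficiency (log2 fold change 3.10, SE 0.77, adjusted p = 0.0036), and 3 of the 4 L30F/L30F libraries were also above every wild-type library while the fourth held 0. Nkg7, a granule protein of cytotoxic lymphocytes, had 10.7, 22.4, 21.8 and 13.1 counts with KEAP1 deficiency, against 4.06, 2.32, 0 and 2.02 in the wild type (log2 fold change 2.69, SE 0.83, adjusted p = 0.015), which was not called without wild-type library 3. Ncr1, the NKp46 receptor, had 2.82, 7.19, 9.01 and 5.09 counts with KEAP1 deficiency, 0, 0, 1.21 and 0 with L30F/+ and 3.16, 3.32, 6.11 and 0 with L30F/L30F, against 2.03, 1.74, 0.622 and 1.34 in the wild type. All 4 KEAP1-deficient libraries were higher, and the call (log2 fold change 1.48, SE 0.58, adjusted p = 0.048) held in 1 of 8 fits without 1 library, the one without KEAP1-deficient library 1.

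B cell genes were at few counts and were not called in any adult comparison. Cd79a, a signalling chain of the B cell receptor, had 5.07, 6.39, 6.01 and 17.5 counts with KEAP1 deficiency, 4.87, 5.73, 46.0 and 17.8 with L30F/+ and 1.58, 0, 6.11 and 8.72 with L30F/L30F, against 3.39, 4.06, 9.33 and 2.69 in the wild type. The highest value was that of L30F/+ library 3. Ms4a1, the CD20 antigen, ranged over 2.25 to 8.01 counts with KEAP1 deficiency, 1.43 to 24.2 with L30F/+ and 0 to 6.97 with L30F/L30F, against 1.34 to 3.11 in the wild type. L30F/+ library 3 was again the highest.

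Mast cell genes fell in pups and, for 2 of 4, in KEAP1-deficient adults, while most other lineages there rose. KEAP1-deficient pups had 4 of 4 lower, L30F/L30F pups 3 of 4, and L30F/+ and L30F/L30F adults 0 of 4. Cpa3 (ENSMUSG00000001865), the carboxypeptidase of mast cell granules, had 7.97, 9.86 and 23.6 counts in L30F/L30F and 4.27, 4.51 and 5.40 in KEAP1-deficient pups, against 41.8, 28.5 and 34.2 in wild-type pups. All 6 mutant libraries were lower (log2 fold change -1.41, SE 0.40, adjusted p = 0.019 and log2 fold change -2.63, SE 0.40, adjusted p = 0.00037). In adults it had 31.5, 21.6, 18.8 and 29.8 counts with KEAP1 deficiency, 41.4, 61.6, 95.7 and 54.8 with L30F/+ and 42.6, 49.7, 42.8 and 52.3 with L30F/L30F, against 52.2, 59.7, 58.5 and 21.5 in the wild type. The KEAP1-deficient call (log2 fold change -0.82, SE 0.31, adjusted p = 0.038) overlapped at wild-type library 4 and held in 3 of 8 fits without 1 library.

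Cma1 and Mcpt4, granule chymases of connective tissue mast cells with near relatives in the same gene cluster, showed the same direction in pups. Cma1 had 13.9, 4.93 and 27.7 counts with L30F/L30F and 2.13, 5.64 and 4.32 with KEAP1 deficiency, against 33.8, 37.4 and 46.2 in the wild type (log2 fold change -1.54, SE 0.54, adjusted p = 0.045 and log2 fold change -3.05, SE 0.54, adjusted p = 0.00098). Mcpt4 had 12.0, 0.986 and 11.3 counts in L30F/L30F and 4.27, 4.51 and 5.40 in KEAP1-deficient pups, against 21.4, 27.6 and 19.7 in wild-type pups. Neither gene had a mutant library within the wild-type range. Mcpt4 was called with KEAP1 deficiency (log2 fold change -2.05, SE 0.65, adjusted p = 0.024) and missed the threshold with L30F/L30F (-1.80, adjusted p = 0.051). In adults Mcpt4 had 17.5, 16.8, 17.3 and 27.7 counts with KEAP1 deficiency, against 33.9, 54.5, 58.5 and 30.9 in the wild type (log2 fold change -1.10, SE 0.34, adjusted p = 0.013), without overlap, and Cma1 was not called (-0.70). Kit, the stem cell factor receptor of mast cells, had 602, 779.7 and 384 counts with L30F/L30F and 323, 275 and 366 with KEAP1 deficiency, against 926, 973 and 855 in wild-type pups. Again no library overlapped (log2 fold change -0.70, SE 0.22, adjusted p = 0.035 and log2 fold change -1.52, SE 0.22, adjusted p = 0.00044). Kit is also made by interstitial cells of Cajal and melanocytes, whose 4 listed marker genes had 1 higher in L30F/L30F and 1 lower in KEAP1-deficient pups, with sums of 1226 to 1495 and 1034 to 1226 against 1120 to 1243 in the wild type.

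The mast cell calls in KEAP1-deficient pups for Cpa3, Cma1 and Kit held in all 6 fits without 1 library, and Mcpt4 held in 1 of 6. In L30F/L30F pups Cpa3 held in 2 of 6 and Kit and Cma1 in 1 of 6. Without the 3 libraries holding thymus or thyroid genes, Kit and Cpa3 were still called in KEAP1-deficient pups (log2 fold changes -1.53 and -2.91) and 0 mast cell genes were called in L30F/L30F pups. The L30F/L30F values were then -0.76 for Kit, -1.39 for Cpa3, -2.18 for Mcpt4 and -1.42 for Cma1, in a fit with 1 wild-type and 2 L30F/L30F libraries. Connective tissue, where these mast cells reside, moved in the same pups. Fibroblast genes were lower for 7 of 8 in both mutant groups, with sums of 164300 to 230400 normalised counts in L30F/L30F and 100100 to 197300 in KEAP1-deficient pups, against 467000 to 505500 in wild-type pups. Its part in the mast cell and macrophage values was not tested.

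**Figure D3:**
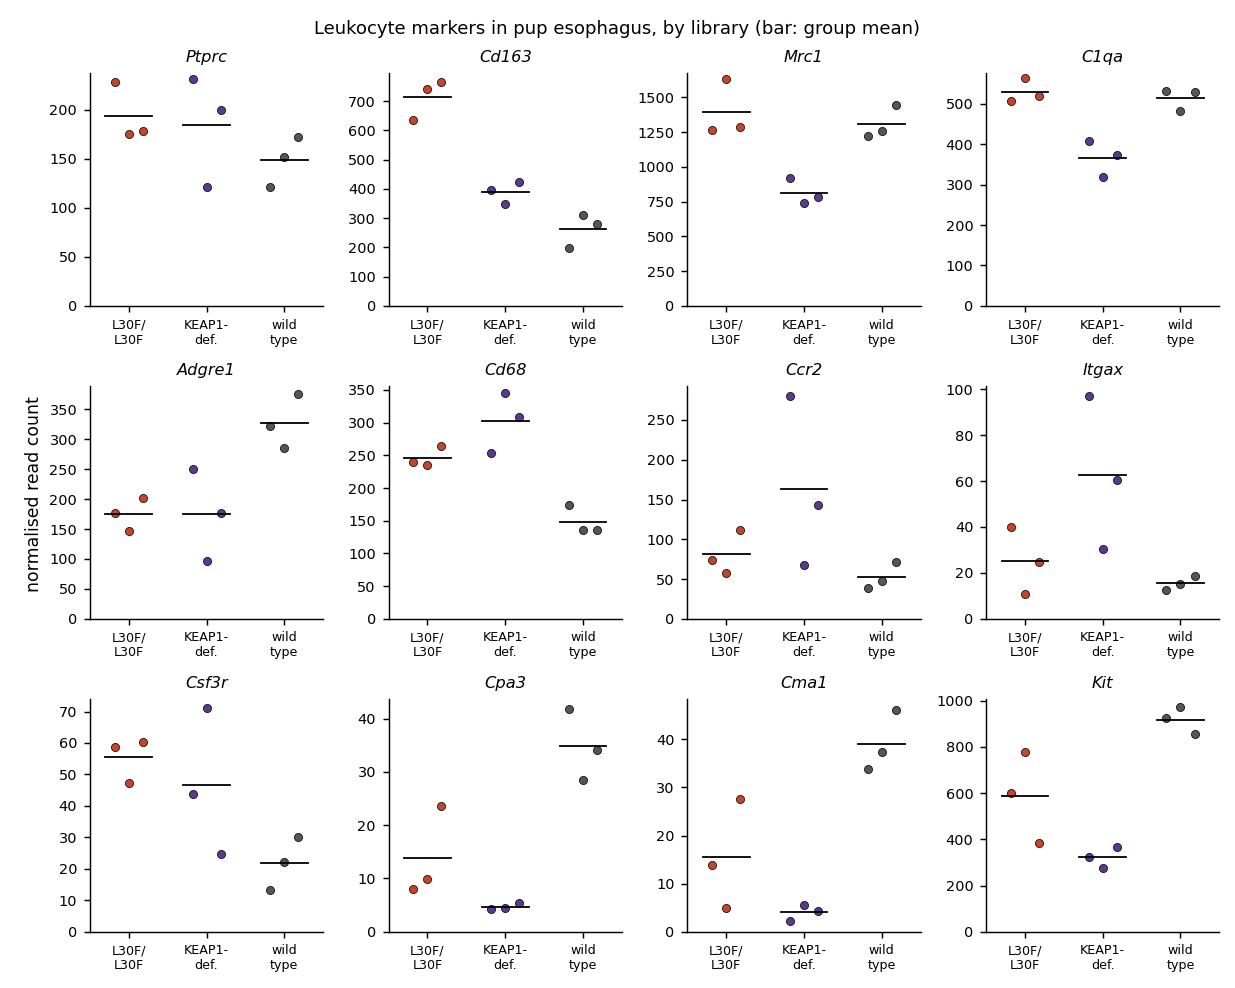
Normalised counts per library (points, linear axis from 0) of selected markers in pups, with L30F/L30F, KEAP1-deficient and wild-type groups from left to right and bars at the group means. Cpa3 and Adgre1 are lower in all 6 mutant libraries than in the wild type, and Cd163 and Cd68 are higher.

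Both less specific genes, S100a4 and Il1r1, are made by fibroblasts as well as leukocytes. S100a4, a calcium-binding protein of motile cells, had 624, 976, 776 and 933 counts with KEAP1 deficiency, 949, 913, 682 and 692 with L30F/+ and 842, 719.6, 1143 and 825 with L30F/L30F, against 436, 466, 499 and 528 in wild-type adults. It was the 1 marker called higher in all 3 adult mutant groups (log2 fold changes 0.76, 0.73 and 0.85, adjusted p = 0.001, 0.011 and 0.0017), with no overlap in any. With the striated muscle covariate the L30F/L30F call held (0.88, adjusted p = 0.0025) and those with KEAP1 deficiency (0.53, adjusted p = 0.53) and L30F/+ (0.83, adjusted p = 0.21) were lost. In L30F/L30F pups it was lower, with 101, 86.7 and 163 counts against 179.8, 225 and 221 in the wild type (log2 fold change -0.88, SE 0.22, adjusted p = 0.01). Il1r1, the interleukin-1 receptor, had 1243, 1053, 1079 and 1186 counts in KEAP1-deficient adults, against 572, 614, 737 and 382 in wild-type adults (log2 fold change 1.02, SE 0.19, adjusted p = 0.00034), without overlap. It was also higher in pups, with 639, 719.5 and 651 counts in L30F/L30F and 530.1, 818 and 628 in KEAP1-deficient pups, against 487, 511 and 433 in the wild type (log2 fold changes 0.49 and 0.45, adjusted p = 0.021 and 0.026).

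The 2 activating genotypes differed from each other in adults. Against KEAP1-deficient adults, L30F/L30F adults had 20 of 37 markers lower and 1 higher, where 26.4% of all genes were called, 13.5% lower and 12.9% higher. The lower ones included Csf3r (-3.56, adjusted p = 0.00068), Cd3e (-2.72, 0.006), Ccr7 (-2.38, 0.0082), Cd14 (-1.75, 0.00075) and Ptprc (-1.44, 0.00083), and the higher one was Cpa3 (0.88, 0.044), whose call held in 1 of 8 fits without 1 library. Lyz2 and Ccr2 did not pass the threshold (-0.40 and -0.87, adjusted p = 0.25 and 0.12). The striated muscle sums of these 2 groups did not overlap, and with the striated muscle covariate 0 of the 21 calls remained. Against L30F/+ adults, L30F/L30F adults had 5 higher and 0 lower, where 16.4% of all genes were called, 8.07% higher and 8.29% lower. Those were Ptprc (1.01), Cd68 (0.60), Csf1r (0.52), Ccr2 (1.80) and Itgax (1.29). Ptprc and Ccr2 did not overlap and held in all 8 fits without 1 library, the other three in 3 of 8. With the striated muscle covariate 0 of the 5 were called (Ptprc 0.58 at adjusted p = 0.31, Ccr2 1.30 at adjusted p = 0.17), and 0 with Ddx3y, a Y-linked gene, as a covariate. L30F/L30F library 3 was the highest of its group for 27 of 37 markers and library 4 the lowest for 18. Without library 4 the L30F/L30F group had 11 markers called against L30F/+, and without library 3 it had 2. Without L30F/+ libraries 1, 3 or 4 the counts were 3, 2 and 3, and without L30F/L30F library 1 the count was 3.

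In pups the direct comparison of L30F/L30F with KEAP1 deficiency gave 3 of 32 markers higher and 0 lower, against 4.17% of all genes called, 1.76% higher and 2.40% lower. They were Mrc1 (log2 fold change 0.77, SE 0.12, adjusted p = 0.02), Cd163 (log2 fold change 0.87, SE 0.16, adjusted p = 0.03) and C1qa (log2 fold change 0.54, SE 0.10, adjusted p = 0.032), each without overlap between the groups. KEAP1-deficient pup library 2 was the lowest of its group for 22 of 32 markers, and 0 of the 3 calls held without it. Without L30F/L30F libraries 1, 2 or 3 the counts were 1, 0 and 5, and without KEAP1-deficient libraries 1 or 3 they were 2 each.

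The response to each genotype differed between adults and pups for many markers. The adult minus pup difference of log2 fold changes, each against its own wild type, was called for 24 of 32 markers under KEAP1 deficiency, all 24 more positive in adults, against 47.1% of all genes called and 20.6% more positive. The markers' median difference was 1.8, beside -0.05 over all genes. Ptprc (difference 2.24, SE 0.35, adjusted p = 8.7e-06), Adgre1 (difference 2.35, SE 0.36, adjusted p = 3e-05) and Csf3r (difference 3.90, SE 0.72, adjusted p = 9e-05) were among them. Cpa3 fell at both ages and fell less in adults (difference 1.82, SE 0.50, adjusted p = 0.0052). For L30F/L30F 13 of 32 were called, 11 more positive and 2 more negative in adults, against 33.5% of all genes, 13.6% and 19.9% by direction, with medians of 0.79 and -0.04. Ccr7 (difference 2.74, SE 1.01, adjusted p = 0.042), S100a4 (difference 1.73, SE 0.27, adjusted p = 4.4e-05) and Adgre1 (difference 1.5, SE 0.36, adjusted p = 0.0034) were more positive, and Cd163 (difference -1.19, SE 0.23, adjusted p = 0.00019) and Il1r1 (difference -0.64, SE 0.24, adjusted p = 0.039) more negative. Without the 3 pup libraries holding thymus or thyroid genes, 22 markers were called under KEAP1 deficiency and 3 under L30F/L30F. The L30F/L30F count was 6 without adult wild-type library 1 or 4, and 7 without adult L30F/L30F library 3 or wild-type pup library 1 or 3. The groups also differ in Cre line and time since recombination, which cannot be told apart from age.

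**Figure D4:**
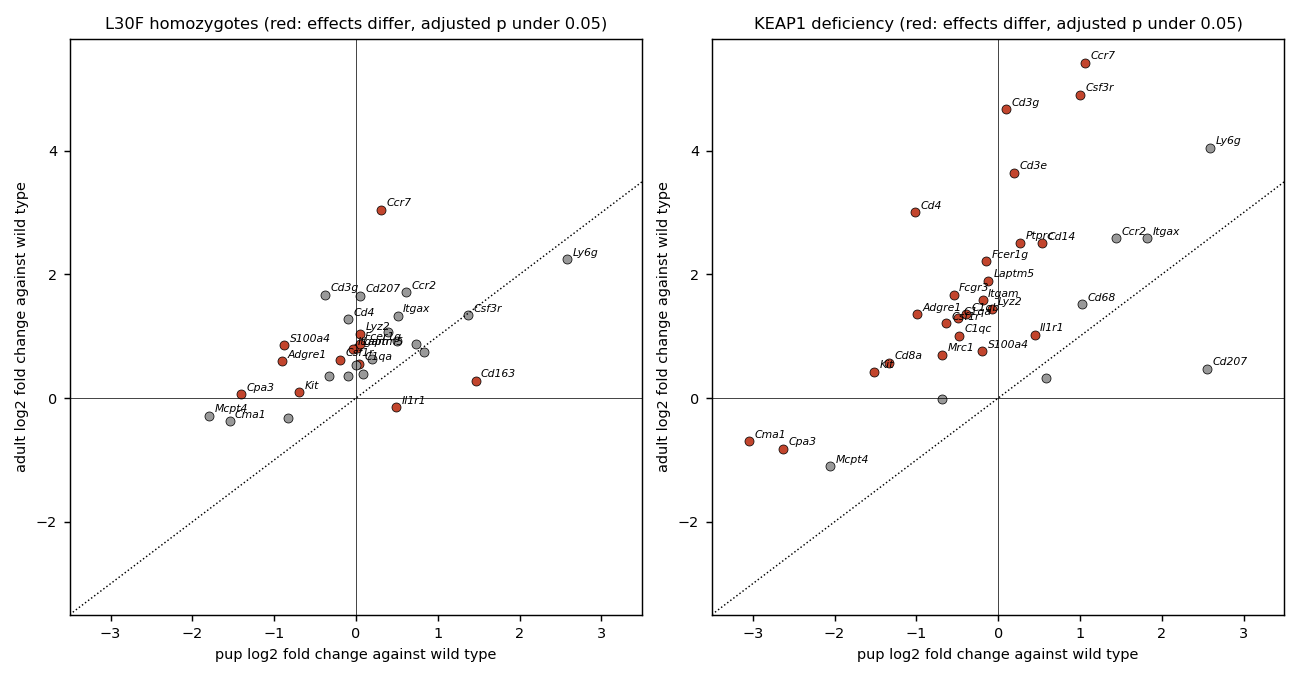
Log2 fold change against the wild type in adults (vertical axis) and in pups (horizontal axis) for each marker tested at both ages, with one panel per genotype, red points where the adult minus pup difference was called and grey points elsewhere. The dotted line marks equal change. Under KEAP1 deficiency the 24 called markers all lie above the line of equal change.

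The makeup of the leukocyte signal was described by counts per 100 counts of Ptprc in the same library. Per Ptprc, 4 of 36 other markers were higher in KEAP1-deficient adults than in the wild type without overlap, Ccr7, Cd3e, Csf3r and Ly6g, where 1.20% of all genes were. Csf3r had a mean of 83.7 (range 62.1 to 114) per 100 Ptprc counts with KEAP1 deficiency, against 17.8 (range 7.64 to 31.3) in the wild type. Cd3e had 6.96 (range 5.55 to 9.85) with KEAP1 deficiency and 3.04 (range 1.79 to 4.99) in the wild type. A further 23 were lower without overlap, as were 90.0% of all genes, since Ptprc itself rose. Among them Cd163 had 53.1 (range 49.7 to 56.6) with KEAP1 deficiency, against 248 (range 212 to 350.0) in the wild type, and C1qa 113 (range 97.6 to 131) against 266 (range 231 to 336). Mast cell Cpa3 had 1.36 (range 0.933 to 1.76) with KEAP1 deficiency, against 14.3 (range 8.40 to 18.8) in the wild type. Ccr2 overlapped between the groups, with 151 (range 125 to 184) against 144 (range 112 to 168).

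In L30F/L30F adults 2 markers were higher per Ptprc without overlap, Ccr7 and Ly6g, against 0.624% of all genes, and 4 were lower against 23.5%. Their Ccr2 had 229 (range 142 to 315) per 100 Ptprc counts, overlapping the wild type. In L30F/+ adults Ccr7 was higher, against 1.72% of all genes, and Il1r1 lower, against 2.67%. L30F/L30F pups had 3 of 31 higher, Cd163, Csf3r and Ly6g, against 9.65% of all genes, and 12 lower, against 39% (8188 of 21007). KEAP1-deficient pups had 3 higher, Ccr2, Itgax and Ly6g, against 10.7%, and 12 lower, against 26.2%. The higher shares of both pup groups and the lower share with L30F/L30F are near those of all genes. Cd163 had 378 (range 279 to 430.0) per 100 Ptprc counts in L30F/L30F pups, against 177 (range 163 to 205) in wild-type pups. Cpa3 had 7.44 (range 3.49 to 13.2) in L30F/L30F and 2.76 (range 1.84 to 3.74) in KEAP1-deficient pups, against 24.4 (range 18.7 to 34.6) in the wild type.

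**Figure D5:**
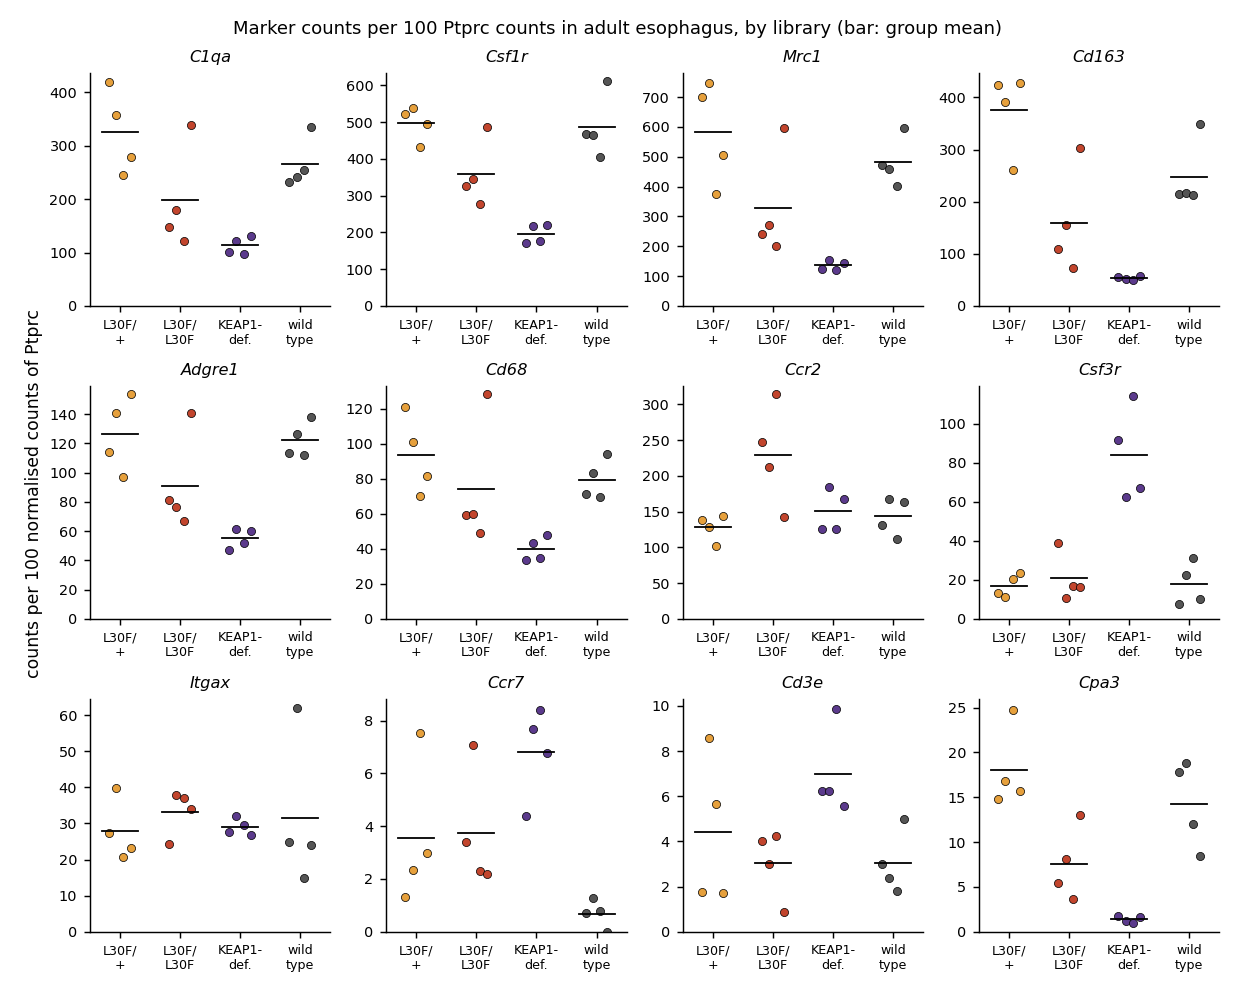
Counts of selected markers per 100 Ptprc counts in each adult library (points, linear axis from 0), with L30F/+, L30F/L30F, KEAP1-deficient and wild-type groups from left to right and bars at the group means. Csf3r lies higher in the KEAP1-deficient libraries (mean 83.7, wild type 17.8), and C1qa and Cpa3 lie lower.

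Other leukocyte genes, 113 symbols outside the 39 markers, were counted in the same fits. In KEAP1-deficient adults 66 of 101 tested were higher and 7 lower, beside 24.1% and 22.7% of all genes, with a median log2 fold change of 2. L30F/L30F adults had 29 higher and 3 lower, beside 11.8% and 10.4% of all genes. In L30F/+ adults 7 were higher and 1 lower, beside 4.80% and 4.90%. Of 86 tested in pups, 21 were higher and 9 lower with L30F/L30F, beside 22.0% and 17.1% of all genes, and 19 and 12 with KEAP1 deficiency, beside 26.3% and 23.2%. The pup shares were near or below those of all genes. The 9 pan-leukocyte genes tested in adults were all higher in both homozygous groups, led by Coro1a and Vav1 (2.62 and 2.41 with KEAP1 deficiency, 1.61 and 1.24 with L30F/L30F), an actin regulator and a signalling exchange factor of blood cells.

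By lineage, KEAP1-deficient adults had 10 of 13 neutrophil genes higher and 1 lower. S100a8, S100a9 and the cytokine Il1b, all of which stressed squamous epithelium also makes, had log2 fold changes of 9.16, 7.67 and 6.32. Of 18 T cell and innate lymphoid genes 14 were higher and 2 lower. Trdc, the constant region of the delta T cell receptor chain, had 593, 537, 617 and 577 counts with KEAP1 deficiency, against 10.2, 18.5, 9.95 and 11.4 in the wild type (log2 fold change 5.47, SE 0.38, adjusted p = 2.1e-08). It separated the groups completely. NK and cytotoxic genes had 5 of 7 higher, among them Klrk1 (3.10) and Gzmb (3.74), monocyte genes 4 of 5, dendritic genes 7 of 13, B and plasma cell genes 4 of 10 and eosinophil genes 3 of 6, among them Siglecf (4.25). Macrophage genes had 9 of 14 higher and 3 lower, with Ctss, a lysosomal protease, at 2.50. Mast cell and basophil genes had 1 of 6 higher, Hdc, the histamine-forming enzyme (4.64), and 1 lower, Tpsb2, a mast cell tryptase (-0.80).

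In pups the neutrophil list had 7 of 12 genes higher and 0 lower with L30F/L30F, where 22.0% and 17.1% of all genes were. With KEAP1 deficiency 6 were higher and 1 lower, beside 26.3% and 23.2%. The list holds S100a8 and S100a9, which squamous epithelium also makes, and S100a9 had 1170 to 3963 counts in the mutants, against 36.5 to 68.5 in the wild type. Ngp overlapped, with 4.51 to 54.3 counts in the mutants and 14.2 to 38.3 in the wild type. Ltf went the other way without overlap, with 8.87 to 1148 counts in L30F/L30F and 3.39 to 249 in KEAP1-deficient pups, against 1876 to 2916 in the wild type. The L30F/L30F difference of Ltf was not called. The mast cell and basophil list had 2 of 5 higher and 0 lower with L30F/L30F and 1 of 5 higher and 0 lower with KEAP1 deficiency. Cyp11a1 had 8.97 to 39.5 counts in the mutants against 0 to 3.42 in the wild type, and Gata2 98.1 to 198 against 76.2 to 81.8. With KEAP1 deficiency Tpsb2 went the way of the 4 mast cell markers, with 12.8 to 16.2 counts against 34.2 to 46.2, without overlap but not called. With L30F/L30F it overlapped the wild type, at 11.8 to 78.9 counts. Ctla4, an inhibitory receptor of regulatory and activated T cells, had 39.9, 38.4 and 36.9 counts in L30F/L30F and 50.1, 26.0 and 36.7 in KEAP1-deficient pups, against 0, 0.890 and 0.856 in wild-type pups (log2 fold change 4.70, SE 0.37, adjusted p = 5.2e-06 and log2 fold change 4.62, SE 0.37, adjusted p = 4e-06). All 6 mutant libraries were above all 3 wild-type libraries. Ctla4 was 1 of 17 T cell and innate lymphoid genes listed in pups, and the others did not move as one. Thy1 was lower, with 165 to 376 counts in L30F/L30F and 104 to 186 in KEAP1-deficient pups, against 391 to 493 in the wild type. Il7r was higher, with 19.9 to 56.5 counts in the mutants against 5.34 to 12.5, and Icos overlapped. Which cells made Ctla4 was not tested. Of 14 macrophage genes 4 were higher and 3 lower with L30F/L30F, beside 22.0% and 17.1% of all genes. With KEAP1 deficiency 2 were higher and 3 lower, beside 26.3% and 23.2%. These shares are near or below those of all genes.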

How the data were processed

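RNA-seq of mouse esophagus was deposited by the authors as 2 tables of log2 values, 1 for pups and 1 for adults. Salmon and GRCm39 are named in the submitters' processing notes without a version, which is not given in the sources used here. Deposited log2 values were found to be log2(n + 4), with n a read count divided by a size factor per library. Whole reads could be recovered for 100% of values up to 1000 reads (tolerance 0.1 read). The tables were normalised separately, so levels are compared within a table only.

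Normalised counts n were tested as log2(n + 1) with limma 3.58.1 (R 4.3.3, statmod 1.5.0; trend and robust options), all groups of an age in 1 fit, for genes with n of at least 1 in 3 pup or 4 adult libraries. P-values were adjusted by Benjamini-Hochberg across every gene in the fit, with a threshold of 0.05. SE is that of the log2 fold change and n is 3 libraries per pup group and 4 per adult group. The adult minus pup difference was divided by its SE with Welch-Satterthwaite degrees of freedom. Total reads were 18.8 to 32.3 M except in L30F/+ (12.8 to 16.9) and L30F/L30F adults (10.9 to 11.6). Intervals and floors cover counting error only.

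Same-numbered libraries of KEAP1-deficient and wild-type pups had deviations correlated at 0.11, 0.11 and 0.31, so a replicate block is given as an alternative to that comparison. In the other comparisons 0 of 6 pup pairs and 3 of 24 adult pairs were above 0.1, and the numbers were not taken as pairs. Alternatives were another scaling, offset, filter, voom weights on recovered reads, fewer groups in the fit, a 2-fold threshold, covariates, the replicate block and each library left out. A fit without the 3 pup libraries holding thymus or thyroid genes was chosen after seeing the data, and its lone wild-type library is assumed to vary like the other groups. That wild-type library had the highest Foxj1 value of all pup libraries, 99.7 counts, so this fit was not free of the listed airway gene. Values of every library are given for markers called against the wild type without overlap, and for 1 marker per lineage. The other leukocyte genes named are at most 3 per list, those with the smallest adjusted p. In pups further genes were named to show the spread within a list. The markers, lists and tests were chosen with earlier results of these data known.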

Additional observations from a re-analysis of the deposited data

Results flagged for a closer look

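A library stood apart from the rest of its adult group in 12 of the 148 marker and group pairs tested, 8.11%, where chance gives about 1 in 20. In 2 of these the other libraries were all at 0, so that any count stands apart, and 10 of the other 146 pairs, 6.85%, remain. Pup groups of 3 were not tested. Among KEAP1-deficient adults, library 1 had 2163 counts of Laptm5, the others 2848 to 2924. Library 3 of that group had 198.2 counts of Cd3e, the others 104.1 to 114.2. Its library 4 had 17.5 counts of Cd79a and 27.7 of Mcpt4, the others 5.07 to 6.39 and 16.8 to 17.5. In L30F/+ adults library 3 had 89.6 counts of Tyrobp and 1.21 of Ncr1, both at 0 in the others, the pairs left out of that share. Library 1 of L30F/+ had 493.5 counts of Epcam, the others 379.7 to 396, and library 2 had 146 of Itgax, the others 76.8 to 81.5. In wild-type adults library 3 had 1169 counts of Laptm5 and 1305 of C1qb, the others 581 to 654 and 696 to 779. Wild-type library 2 had 197 counts of Itgax and 20.3 of Cd8a, the others 61.8 to 73.2 and 24.2 to 24.4.

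The effect of a genotype differed between adults and pups for 37 marker and genotype pairs by the test of the difference itself. Values are adult minus pup differences of log2 fold changes. Under KEAP1 deficiency they were more positive in adults for Ptprc (2.24), Laptm5 (2.02), Fcer1g (2.36), Itgam (1.77), Fcgr3 (2.21), Lyz2 (1.52), Cd14 (1.97), Adgre1 (2.35), Csf1r (1.84), Mrc1 (1.38), C1qa (1.78) and C1qb (1.75). The same held for C1qc (1.48), Ccr7 (4.36), Cd3e (3.45), Cd3g (4.58), Cd4 (4.02), Cd8a (1.91), Kit (1.94), Cpa3 (1.82), Cma1 (2.35), Csf3r (3.90), S100a4 (0.96) and Il1r1 (0.57). Under L30F/L30F they were more positive for Laptm5 (0.79), Fcer1g (0.83), Itgam (0.84), Lyz2 (0.99), Adgre1 (1.5), Csf1r (0.81), C1qa (0.51), Ccr7 (2.74), Kit (0.79), Cpa3 (1.47) and S100a4 (1.73), and more negative for Cd163 (-1.19) and Il1r1 (-0.64).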

How the results depend on the processing

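Testing without a filter kept all 144 calls, and TMM scaling and an offset of 4 each ended 1 of 144 calls. A 2-fold requirement left 5 markers called in L30F/L30F pups, 9 in KEAP1-deficient pups, 0 between these 2, 0 in L30F/+ adults, 6 in L30F/L30F adults, 3 for L30F/L30F against L30F/+ and 13 for L30F/L30F against KEAP1 deficiency. Fitting only the groups compared left 8 in L30F/L30F adults, 3 for L30F/L30F against L30F/+ and 8 for the adult minus pup effect of L30F/L30F. Voom weights on recovered reads left 3 for L30F/L30F against L30F/+. With Ddx3y, a Y-linked gene, as a covariate, 5 were called between the mutant pups, 1 in L30F/+ adults and 0 for L30F/L30F against L30F/+. The striated muscle covariate left 0 in L30F/+ adults, 0 in KEAP1-deficient adults, 0 for L30F/L30F against L30F/+ and 0 for L30F/L30F against KEAP1 deficiency. It reversed 8 log2 values: Cd8a (-0.50) and Ncr1 (-0.70) in KEAP1-deficient adults, and Adgre1 (0.41), Csf1r (0.19), Ccr2 (0.76), Ccr7 (0.032), Cd3e (0.88) and Nkg7 (0.10) for L30F/L30F against KEAP1 deficiency. Without the 3 pup libraries holding thymus or thyroid genes, 2 were called in L30F/L30F pups, 9 in KEAP1-deficient pups, 0 between them and 3 for the adult minus pup effect of L30F/L30F, from fewer libraries. Apart from that, the cause of these changes was not tested. Leaving out each library gave 6 to 9 calls in L30F/L30F pups, 12 to 17 in KEAP1-deficient pups, 0 to 5 between them, 1 to 5 in L30F/+ adults, 9 to 19 in L30F/L30F adults, 27 to 30 in KEAP1-deficient adults, 2 to 11 for L30F/L30F against L30F/+, 16 to 22 against KEAP1 deficiency, and 6 to 14 and 21 to 25 for the adult minus pup effects of L30F/L30F and KEAP1 deficiency. Of 144 calls, 94 held with every library left out, 30 under every other alternative and 40 under all of these but the 2-fold requirement. With a replicate block, which changed 0 of the 18 marker calls in KEAP1-deficient pups, where the numbers were correlated, the counts were 11 in L30F/L30F pups, 18 in KEAP1-deficient pups, 2 between them, 4 in L30F/+ adults, 17 in L30F/L30F adults, 27 in KEAP1-deficient adults, 6 for L30F/L30F against L30F/+ and 19 against KEAP1 deficiency. Markers at few counts (Ly6g, Cd207, Ncr1, Cd79a, Ms4a1) are limited by depth, most in the L30F/L30F adults.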
